A study of Mus musculus with 8 samples.

Results

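Sp140 and 8 further transcripts known to be induced by interferon (Sp100, Sp110, Ifitm1, Ifitm2, Ifitm3, Bst2, Isg15 and Isg20) were examined in mouse platelets, as 9 of the 43548 genes in the table. Sp140 was picked for its higher values in TNFdARE mice, so its difference between genotypes is given as a description with no test, whereas the other 8 were named by family and function. Platelet RNA came from 4 TNFdARE mice and 4 control littermates, with 2 females and 2 males per group by their labels. All were at baseline and 8 to 12 weeks of age. The library name of TNFdARE mouse 2 holds a date, of unstated meaning, that no other library name holds. TNFdARE mice carry a deletion of the AU-rich elements of Tnf in every cell, were backcrossed to C57BL/6J, and make more TNF-α throughout life. Other text in the labels gives 3 mice per group, or male mice of 5.2 months whose humeri were taken, which do not match the listing of these 8 mice. The question addressed was whether platelets that form under chronic TNF-α carry other levels of these transcripts than platelets of control littermates.

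Interferons bind cell surface receptors whose JAK kinases activate STAT transcription factors, which enter the nucleus with IRF proteins and switch on a large set of genes against infection. TNF-α can feed into the same set, since it can lead cells to secrete type I interferon. Platelets have no nucleus, and their RNA is inherited from the megakaryocytes that shed them or taken up from their surroundings, so a platelet transcript reports largely on an earlier cell.

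Sp140 was the only member above 0 in all 8 libraries. The values are FPKM, which scale the fragments of a gene to its transcript length and to the fragments of the library. Isg20, Ifitm2 and Ifitm3 were above 0 in 5 or 6 libraries, Sp100, Sp110 and Isg15 in 1 library each, and Ifitm1 and Bst2 were listed at 0 in all 8. A listed 0 is no measure of absence, because Hprt, which most cells express, was listed at 0 in all 8 libraries, Ppia in 6 and Gapdh in 5. Of the 9 members, 4 (Sp140, Isg20, Ifitm2 and Ifitm3) had a mean of at least 1 FPKM and entered the fit across 1534 genes, and of the 3 other than Sp140, 0 had an adjusted p under 0.05 by limma with Benjamini-Hochberg adjustment (0% of all genes tested) and 0 had an unadjusted p under 0.05 (4.5% of all genes tested). The groups of those 3 members overlapped, while 3.32% of all genes tested had groups that did not.

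The libraries differed in how much they detected. Between 818 and 4917 genes were above 0 in the TNFdARE libraries and between 1479 and 2742 in the control libraries, the number of reads is unknown, and 1 gene, AY036118, held from 33.7% to 67.7% of the summed FPKM, with the highest share in TNFdARE mouse 1. The summed FPKM was 46047 to 99470. All 18 markers of platelets and megakaryocytes were above 0 in at least 1 library. The summed erythroid markers were at 1160 to 14700 FPKM in TNFdARE and 803 to 2250 FPKM in control libraries, with TNFdARE mice 1, 3 and 4 above all controls, and 6 of 11 tested erythroid genes were higher at an unadjusted p under 0.05 (1.76% of all genes tested) while 0 passed the adjusted threshold.

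The sequences before the gene starts are shown first, because interferon is known to act on such genes through short motifs there. Promoters from RefSeq on GRCm38.p6, 250 bases before to 50 bases after each start, were searched on both strands for the core of the interferon-stimulated response element bound by ISGF3 and IRF proteins, which reads GAAA, any 2 bases and GAAA, and for the gamma-activated site, which reads TTC, any 3 bases and GAA. All 9 members matched a promoter entry by symbol. The response element core was in a promoter of 4 of the 9 genes, namely Isg15, Ifitm2, Ifitm3 and Bst2, against 3.99% of 27025 genes. The matches before the start are shown with 20 bases on either side, 5′ to 3′ on the strand of the gene, with the core in capitals; adjacent matches overlap. They lie at chr4:156200855-156200916 on the minus strand for Isg15, chr7:140955978-140956027 on the minus strand for Ifitm2 and chr8:71537567-71537622 on the minus strand for Bst2.
Isg15: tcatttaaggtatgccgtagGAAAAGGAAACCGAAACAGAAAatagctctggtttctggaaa
Ifitm2: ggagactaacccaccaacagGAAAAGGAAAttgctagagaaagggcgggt
Bst2: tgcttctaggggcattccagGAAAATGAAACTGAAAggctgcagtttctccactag
Isg15 held 3 matches, beginning at -78, -72 and -66 relative to the start, Bst2 held 2 and Ifitm2 held 1. In Ifitm3 the core matches began at 3 and 20 bases after the start. The gamma-activated site was in 3 of the 9 genes (Isg20, Ifitm3 and Bst2), against 9.55% of 27025 genes. Neither motif was in the windows of Sp140, Sp100, Sp110 or Ifitm1, which says only that these letters are not in those windows. For comparison with the 3 stretches above, the 100 bases before the RefSeq start of Sp140, at chr1:85600603-85600702 on the plus strand, are given without capitals because they hold no match; GENCODE also lists 1 Sp140 transcript that begins upstream of them, which sets the gene start given below.
Sp140: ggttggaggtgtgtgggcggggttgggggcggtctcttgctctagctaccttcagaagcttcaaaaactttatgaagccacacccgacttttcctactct
Among the genes with a core match, Bst2 and Isg15 were listed at 0 in 7 or 8 libraries. Ifitm2 and Ifitm3, also with a match, were above 0 in 6. Of the genes without a core match, Sp140 was above 0 in all 8, Isg20 in 5 and Sp100 and Sp110 in 1 each. Ifitm1, also without one, was listed at 0 in all 8.

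The speckled protein family comes first. Sp140 (ENSMUSG00000070031, GRCm38 chr1:85600378-85645037, plus strand) encodes a chromatin reader of the SP100 family with a SAND domain, a PHD finger and a bromodomain, expressed mainly in leukocytes, and is known to restrain type I interferon responses in macrophages. Its level was 51.6, 12.8, 8.31 and 8.41 FPKM in TNFdARE mice 1 to 4. It was 0.229, 0.839, 0.888 and 11.3 FPKM in control mice 1 to 4. Control mice 1 to 3 were therefore below 1 FPKM and all 4 TNFdARE mice above 8, but control mouse 4 exceeded TNFdARE mice 3 and 4, so the groups overlapped.

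The group means were 20.3 ± 21.0 FPKM in TNFdARE and 3.31 ± 5.32 FPKM in control mice (SD, n = 4 each). The medians, which 1 mouse moves less, were 10.6 and 0.863 FPKM. On the log2(FPKM + 1) scale, which understates changes of low genes, the means were 3.99 (SD 1.18) and 1.43 (SD 1.49), and the TNFdARE minus control difference was 2.56 with a standard error of 0.84. That difference is what Sp140 was picked on. It was 1.98 without TNFdARE mouse 1 and 3.29 without control mouse 4, and it was 1.44 when limma weighted the libraries by their quality and 1.49 with a pseudocount of 5.

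The standing of Sp140 within each library is computed from the same values on which it was picked. Its split is therefore a further description of those values and adds no evidence. Among detected genes it ranked 85 of 818, 276 of 3187, 371 of 4917 and 390 of 1225 from the highest in TNFdARE mice 1 to 4. In control mice 1 to 3 it ranked 1385 of 1479, 1547 of 2196 and 1533 of 2302, and in control mouse 4 it ranked 307 of 2742. Sp140 was thus at or above at least 68.2% of detected genes in 5 mice, control mouse 4 among them, and at or above at most 33.4% in the other 3. With AY036118 left out and each library scaled to the same total, the Sp140 level in FPKM per 1000000 FPKM of the other genes was 1610, 402, 257 and 202 in TNFdARE mice and 6.88, 25.8, 24.3 and 369 in control mice 1 to 4, which leaves control mouse 4 above TNFdARE mice 3 and 4.

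**Figure D1:**
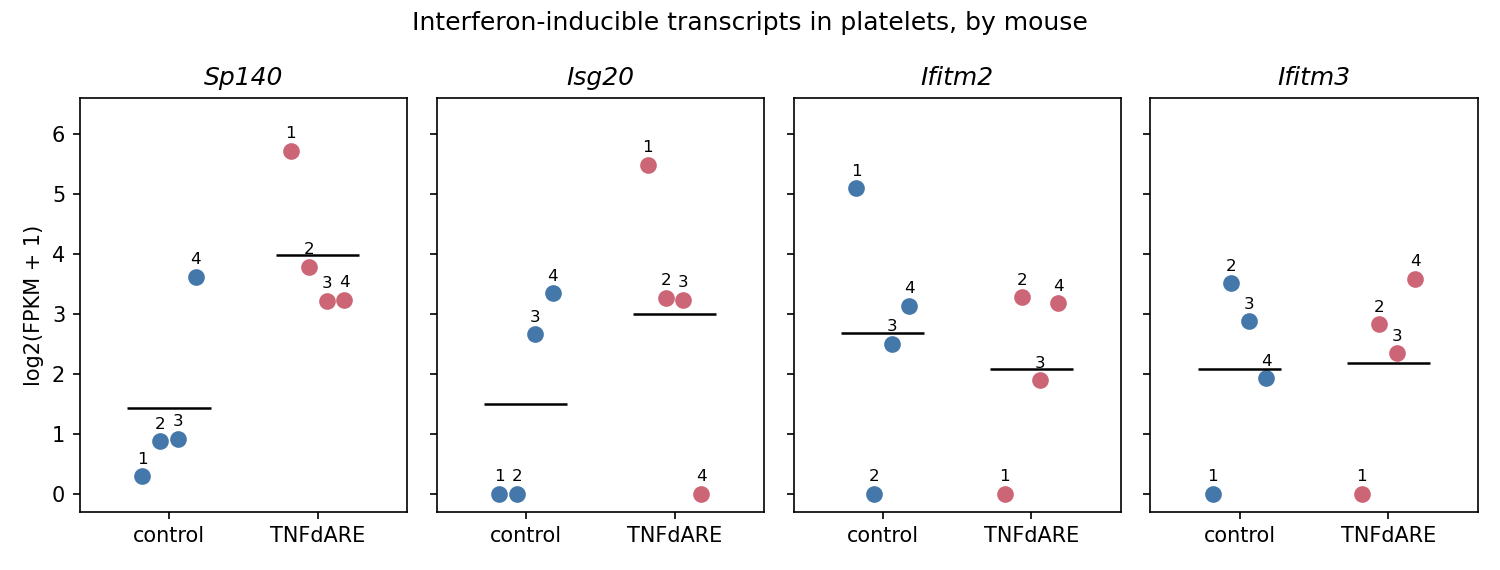
Level of Sp140, Isg20, Ifitm2 and Ifitm3 in each mouse on the log2(FPKM + 1) scale, with 1 point per mouse, numbered by replicate, and a line at the group mean (n = 4). Sp140 lies below 1 FPKM in control mice 1 to 3 and at 11.3 FPKM in control mouse 4, while the other 3 transcripts are listed at 0 in mice of both genotypes.

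Sp100 (ENSMUSG00000026222, chr1:85649988-85709998, plus strand), a component of PML nuclear bodies that restricts DNA viruses, lies next to Sp140. It was above 0 in control mouse 3 alone, at 0.364 FPKM. Sp110 (ENSMUSG00000070034, chr1:85576899-85598817, minus strand), a nuclear body protein linked to resistance of macrophages to intracellular bacteria, flanks Sp140 on the other side. It was above 0 in TNFdARE mouse 3 alone, at 0.416 FPKM, the library with the most genes above 0. With 1 library above 0 each, the two-sided exact permutation p was 1 for Sp100 and for Sp110 (n = 4 per group), which is fixed by construction and decides nothing. The neighbours of Sp140 on chromosome 1 therefore were not detected in the libraries where Sp140 was highest.

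Sp140 has near-copies elsewhere in the genome, which bears on what its values count. The 2417 bases of its longest coding transcript were aligned to the GENCODE M21 transcripts of other genes at 95% identity or more over at least 150 bases, the read length. There were 10 matching genes, listed here by what they share: Arhgef12, Gm5831, A530032D15Rik, C130026I21Rik, Gm2427, Gm6264, Gm18342, Gm7281, Gm2389 and A530040E14Rik. Together the matches covered 100% of the Sp140 transcript. Sp110 was covered to 97.9% by 6 genes and 379 of 2708 Sp100 bases by 4, so the counting of all 3 speckled members is uncertain where reads could be split among copies. How the authors treated reads that map to several genes is not given in the sources used here.

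**Figure D2:**
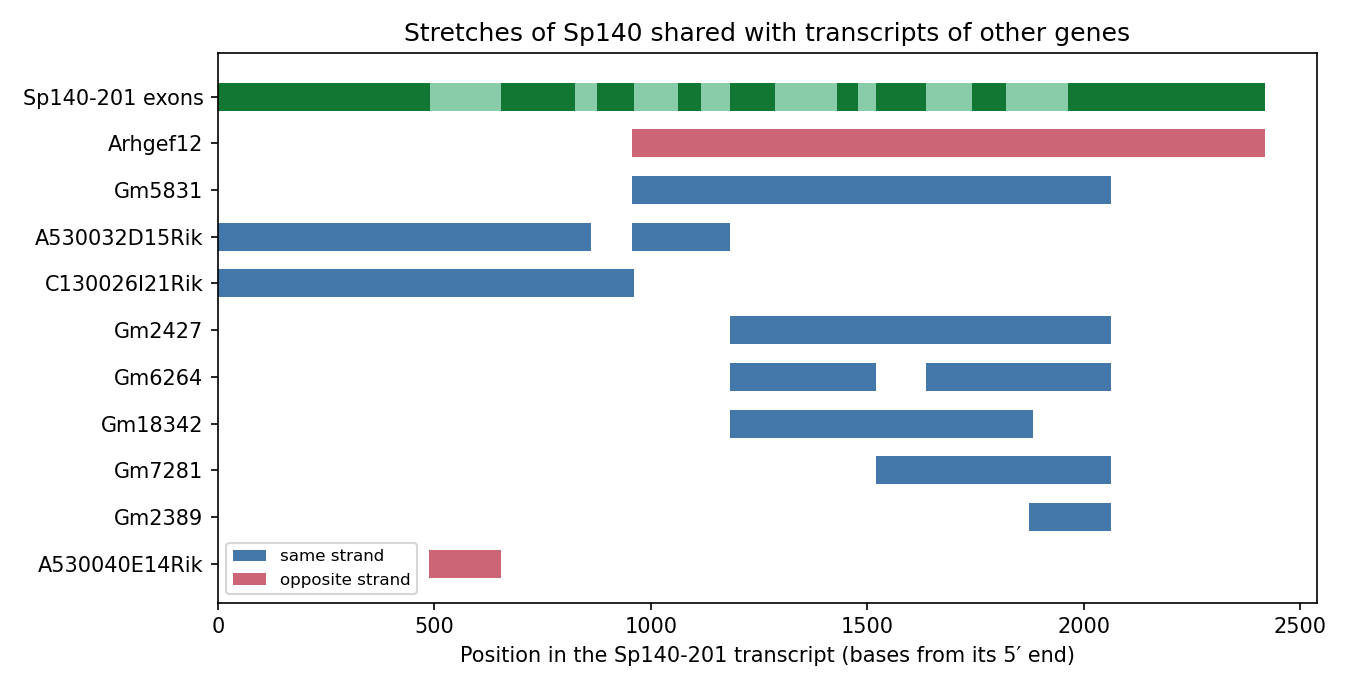
Stretches of the 2417-base Sp140 transcript that are shared at 95% identity or more with transcripts of 10 other genes, by position from its 5′ end; the top row alternates shade at each of its 17 exons. The row of Arhgef12, on the opposite strand, covers bases 957 to 2417.

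The longest match was to Arhgef12, a guanine nucleotide exchange factor for RhoA that platelets use downstream of thrombin receptors, and it covered 1461 bases or 60.4% of the Sp140 transcript on the opposite strand. It consisted of 227 bases at 99.1% identity, at chr9:42964894-42965120, and 1236 bases at 98.5% identity, at chr9:42965200-42966435. Both stretches lie in the last of 42 exons of Arhgef12, after the end of its coding sequence and thus in its 3′ untranslated region. They run across 12 exon junctions of the Sp140 transcript without the introns, as a copy of a spliced transcript does, and GENCODE lists the 1-exon gene Gm5831 there at chr9:42964872-42966080, which is not in the table. A read across a splice junction therefore does not by itself place a fragment at Sp140. Of the 8 junctions inside the longer stretch, 5 had 0 mismatches over 30 bases. The junction of exons 11 and 12 is printed for both genes because it is identical, and that of exons 10 and 11 because it holds 1 mismatch. Capitals mark the later exon, and the Arhgef12 sequence is given on the strand opposite to the gene.
Sp140 exons 11 and 12: cgcaaaagaaaagagCAGAGAACACAGAAC
Arhgef12 opposite strand, 11 and 12: cgcaaaagaaaagagCAGAGAACACAGAAC
Sp140 exons 10 and 11: aaactcctgatccagAGAAATTTTCTACCC
Arhgef12 opposite strand, 10 and 11: aaactcctgatccagAGAAAATTTCTACCC

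Arhgef12 itself was listed at 1.66, 1.96, 1.86 and 0.943 FPKM in TNFdARE mice 1 to 4, whereas control mice 1 to 4 had 3.18, 2.90, 0.79 and 1.88 FPKM. The Arhgef12 levels overlapped between genotypes. Control mice 1 and 2, with the lowest Sp140 levels (0.229 and 0.839 FPKM), had the highest Arhgef12 levels. Control mouse 3, with Sp140 at 0.888 FPKM, had the lowest Arhgef12 level. TNFdARE mouse 1, with the highest Sp140 level (51.6 FPKM), had Arhgef12 at 1.66 FPKM. The other copies in the table were above 0 in 1 library at most: C130026I21Rik was at 2.38 FPKM in TNFdARE mouse 2, Gm7281 at 0.276 in control mouse 1, A530040E14Rik at 0.14 in TNFdARE mouse 3 and Gm6264 at 0.114 in TNFdARE mouse 2, and the remaining copies were listed at 0 in all 8. Whether the library kept strand is not given in the sources used here, and without strand, a read from the shared stretch can be placed at Sp140 or at the 3′ end of Arhgef12 only by the few bases that differ. The part of the copies in the Sp140 values was not tested.

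The IFITM members encode small membrane proteins that block the fusion of enveloped viruses, and Ifitm3 is the family member known from megakaryocytes and platelets during viral illness. Ifitm2 (ENSMUSG00000060591, chr7:140954837-140955987, minus strand) was at 0, 8.68, 2.72 and 8.06 FPKM in TNFdARE mice 1 to 4. In control mice 1 to 4 it was at 33.1, 0, 4.66 and 7.80 FPKM. The highest and one of the 0 values were both in control mice, and the groups overlapped throughout. The TNFdARE minus control difference was -0.60 on the log2 scale (SE 1.05, limma adjusted p = 0.90 with Benjamini-Hochberg; two-sided exact permutation p = 0.74, n = 4 per group), and it turned positive without control mouse 1 (0.21) or without TNFdARE mouse 1 (0.10). The Ifitm2 transcript shares 69.8% of its 655 bases with 3 other genes.

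Ifitm3 (ENSMUSG00000025492, chr7:141009586-141010770, minus strand) was at 0, 6.10, 4.07 and 11.0 FPKM in TNFdARE mice 1 to 4. In control mice 1 to 4 it was at 0, 10.4, 6.35 and 2.80 FPKM. Each group held 1 mouse at 0, and the remaining 6 mice interleaved. The difference was 0.11 (SE 0.94, limma adjusted p = 0.99 with Benjamini-Hochberg; two-sided exact permutation p = 0.89, n = 4 per group), and its direction turned without control mouse 1 (-0.58), TNFdARE mouse 2 (-0.10) or TNFdARE mouse 4 (-0.36). Ifitm3 shared no stretch of at least 150 bases with another gene. By sex label, the females were at 6.10 and 11.0 FPKM in TNFdARE and 0 and 2.80 FPKM in controls, and the males at 0 and 4.07 FPKM in TNFdARE and 10.4 and 6.35 FPKM in controls. The genotype by sex interaction was 4.27 on the log2 scale (limma adjusted p = 0.92 with Benjamini-Hochberg), and Ifitm3 was 1 of 54 genes with an unadjusted p under 0.05 among 1534, of which 0 passed adjustment. Ifitm1 (ENSMUSG00000025491, chr7:140967221-140969825, plus strand) was listed at 0 in all 8 libraries, as was Bst2 (ENSMUSG00000046718, chr8:71534255-71537456, minus strand), which encodes tetherin, the protein that holds budding virions at the cell surface.

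Among the ISG members, Isg20 (ENSMUSG00000039236, chr7:78913424-78920396, plus strand), a 3′ to 5′ exonuclease that degrades viral RNA, came nearest to Sp140 in level. It was at 43.8, 8.65, 8.44 and 0 FPKM in TNFdARE mice 1 to 4. In control mice 1 to 4 it was at 0, 0, 5.32 and 9.17 FPKM. Isg20 was highest in TNFdARE mouse 1, as Sp140 was, and its highest control value was in control mouse 4, as for Sp140, but TNFdARE mouse 4 was at 0 and the groups overlapped. The difference was 1.5 on the log2 scale (SE 1.13, limma adjusted p = 0.86 with Benjamini-Hochberg; two-sided exact permutation p = 0.40, n = 4 per group), with a smallest possible exact p of 0.029. Isg20 shared no stretch with another gene under the same search.

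Isg15 (ENSMUSG00000035692, chr4:156199424-156200818, minus strand), a ubiquitin-like modifier that is attached to proteins after interferon exposure, was at 2.65 FPKM in control mouse 4 and listed at 0 in the other 7 (two-sided exact permutation p = 1, n = 4 per group). With 1 mouse above 0, this p is fixed by construction and decides nothing. Its transcript shares 63.8% of its bases with 1 other gene, which has no row here. Of the enzymes that attach Isg15, the E1 and E2 were detected more widely, while Herc6, its main E3 ligase in mice, was listed at 0 in all 8 libraries. Uba7, its activating E1 enzyme, was at 0, 16.6, 10.2 and 72.9 FPKM in TNFdARE mice and 2.53, 17.9, 35.6 and 12.2 FPKM in control mice 1 to 4. Ube2l6, its E2 enzyme, was at 16.3, 1.94, 8.69 and 35.2 FPKM in TNFdARE mice and 3.30, 3.37, 6.06 and 1.31 FPKM in control mice 1 to 4. TNFdARE mice 1, 3 and 4 were above all 4 control mice for Ube2l6, and TNFdARE mouse 2 was below 2 FPKM. The summed erythroid markers had the same order over the TNFdARE mice, at 6960, 1160, 2980 and 14700 FPKM in mice 1 to 4, and were highest among controls in control mouse 3 (2250 FPKM), as Ube2l6 was, and their part in the Ube2l6 levels was not tested. The difference was 1.47 for Ube2l6 (SE 0.78, limma adjusted p = 0.86; 0.92 leaving out TNFdARE mouse 4, but 2.13 leaving out TNFdARE mouse 2) and -0.29 for Uba7 (limma adjusted p = 0.97). The Uba7 direction turned without TNFdARE mouse 1 (0.86) or control mouse 3 (0.19), its difference was -1.21 without TNFdARE mouse 4, and its genotype by sex interaction was 5.38 (limma adjusted p = 0.92).

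The order of the member levels, in FPKM and thus per length, depended on the genotype. The medians in control mice were 6.23 FPKM for Ifitm2, 4.58 for Ifitm3, 2.66 for Isg20 and 0.863 for Sp140. The medians in TNFdARE mice were 10.6 FPKM for Sp140, 8.54 for Isg20, 5.39 for Ifitm2 and 5.08 for Ifitm3. The spread between mice was wider than the steps between neighbours in either order, the change of place of Sp140 reflects the values it was picked on, and the other 5 members had medians of 0 in both groups. The genes whose pattern over the 8 libraries was most like that of Sp140, by Pearson r on log2(FPKM + 1) among 1533 genes, were Gm26735 (r = 0.90, Spearman rho = 0.81), Tmem123 (r = 0.90, rho = 0.90) and Arf5 (r = 0.89, rho = 0.88). Without TNFdARE mouse 1 and control mouse 1, the libraries farthest from the Sp140 median, the values of r were 0.85, 0.74 and 0.72. Isg20 ranked 29 by this measure (r = 0.76), and its r was 0.43 without those 2 libraries. These correlations are descriptions over 8 libraries whose values share the depth and composition of each library. TNFdARE mouse 1 had the highest level of all 3, at 6.90 FPKM for Gm26735, 45.3 for Tmem123 and 27.9 for Arf5.

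Other genes of the interferon pathway were taken from 4 lists, of which 164 genes had a row. Of these, 50 exceeded 0 FPKM in some library and 10 had a mean of at least 1 FPKM. Of the 10, 0 had an adjusted p under 0.05 and 0 an unadjusted p under 0.05 by limma in either direction (1.76% higher and 2.74% lower among all genes tested), 4 were higher and 6 lower in TNFdARE mice, and their median difference was -0.21 beside -0.30 over all 1534 genes tested. The 19 interferon ligands, among them Ifnb1, Ifng and the interferon-α genes, were listed at 0 in all 8 libraries, and so was Tnf. Among 34 receptors and signalling genes, 12 were above 0 and 3 were tested, with a median difference of -0.53. Jak1, the kinase shared by type I and type II interferon receptors, ranged from 1.13 to 2.33 FPKM in the TNFdARE mice, whereas control mice 1 to 4 had 0.271, 36.2, 5.19 and 1.06 FPKM (difference -1.02, limma adjusted p = 0.86), and the difference was -0.05 without control mouse 2. Jak2, which serves the interferon-γ receptor, differed by -0.53 (-0.30 without TNFdARE mouse 1 or 4, -0.13 with sample weights, -0.14 with a pseudocount of 5 and -1.79 with 0.1) and Myd88, an adaptor of Toll-like receptors, by 0.02. The Myd88 direction turned without control mouse 2 (-0.21) or control mouse 4 (-0.02) and with a pseudocount of 0.1 (-0.85). Irf7, the amplifier of type I interferon, was above 0 only in TNFdARE mouse 3, at 0.982 FPKM.

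Among 92 interferon-stimulated effectors, 32 were above 0 and 6 were tested, with a median difference of 0.06 and 3 in each direction. Beside Ube2l6 and Uba7, the most abundant was Lgals3bp, a secreted glycoprotein, at 5.82, 3.62, 5.49 and 2.98 FPKM in TNFdARE mice and 24.3, 11.1, 3.39 and 2.56 FPKM in control mice 1 to 4 (difference -0.64, limma adjusted p = 0.87). With sample weights the Lgals3bp difference was -0.13, and without control mouse 1 it was -0.10, but without control mouse 4 it was -1.05. Of the 19 GTPases induced by interferon-γ, 6 were above 0 and only Igtp was tested, at 0, 2.19, 4.67 and 0 FPKM in TNFdARE mice and 10.6, 1.38, 1.77 and 4.21 FPKM in control mice 1 to 4 (difference -1.11, SE 0.82). The Igtp difference was -0.66 without control mouse 1, -0.01 with sample weights and -2.55 with a pseudocount of 0.1. Sp140, which had been picked on its difference, was followed by Isg20 and Ube2l6 among the 14 interferon genes tested, and the order of those last 2 depended on the setting: Ube2l6 exceeded Isg20 after quantile normalization (1.71 and 1.61) and without TNFdARE mouse 1 (1.27 and 0.67), for example. Without that mouse, Ly6e (1.05), Uba7 (0.86) and Ifitm3 (0.84) exceeded Isg20 as well.

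**Figure D3:**
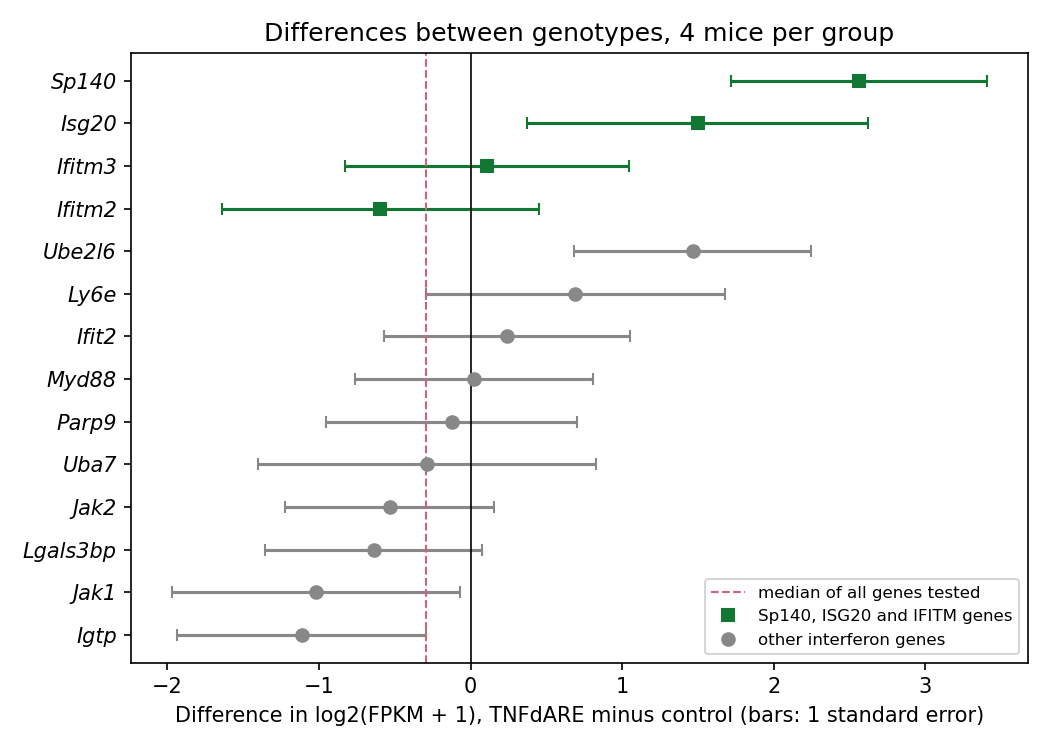
TNFdARE minus control difference in mean log2(FPKM + 1) for 4 members (green squares) and 10 other interferon genes (grey circles), with bars of 1 standard error and n = 4 per group; the dashed line is the median of all 1534 genes tested, at -0.30. Sp140, at 2.56, was picked on this contrast, and the intervals of most others span 0.

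The number of interferon genes detected largely moved with the number of all genes detected, with control mouse 1 and TNFdARE mouse 4 in opposite order on the 2 measures. Of the 164, 8, 23, 35 and 11 were above 0 in TNFdARE mice 1 to 4 and 10, 12, 19 and 21 in control mice 1 to 4. TNFdARE mouse 3, with 11.3% of all genes above 0, had 21.3% of the interferon genes, and TNFdARE mouse 1, with 1.88% of all genes, had 4.88%. TNFdARE mice 2 and 3 were above and TNFdARE mice 1 and 4 below or among the control mice on both measures. Over the TNFdARE mice Sp140 did not follow this order, since its highest value was in the library with the fewest genes above 0. In control mice 1 to 4 it did, at 0.229, 0.839, 0.888 and 11.3 FPKM, in the order of both measures.

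**Figure D4:**
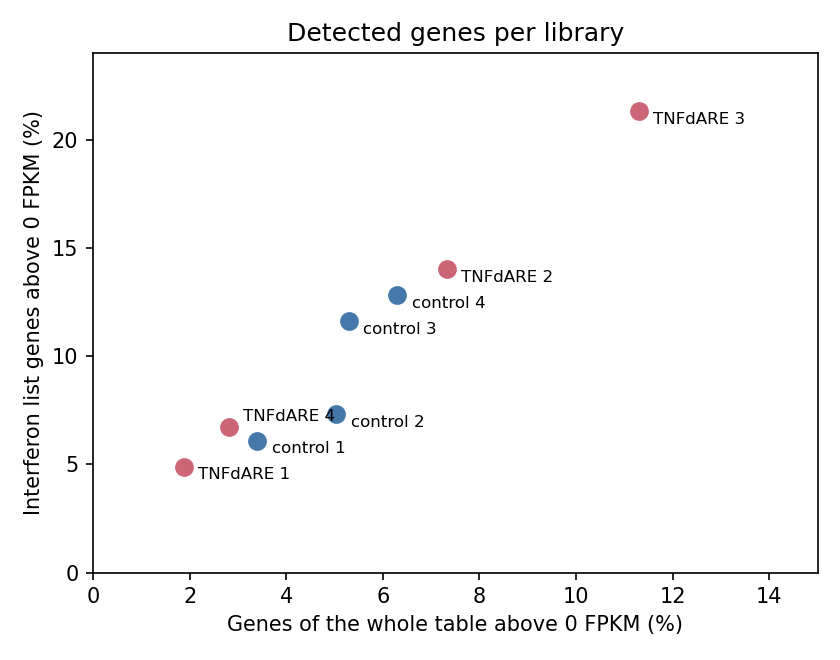
Percentage of 164 interferon list genes above 0 FPKM against that of all 43548 genes, with 1 point per library, control in blue and TNFdARE in red. The share of interferon genes above 0 ran from 4.88% in TNFdARE mouse 1, which had the fewest genes above 0, to 21.3% in TNFdARE mouse 3, which had the most.

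Because Sp140 and Bst2 are known from leukocytes, markers of other blood cells were read in the same libraries; in bulk RNA, fewer cells of a type and less RNA per cell cannot be told apart. Of 12 neutrophil markers 4 were above 0, summing to 0 in all control libraries and to 0 to 10.3 FPKM in TNFdARE libraries. The 10.3 FPKM was S100a9 alone, in TNFdARE mouse 4. Mpo, Elane and Ngp were above 0 only in TNFdARE mouse 3, at 0.269 FPKM or less. Of 12 monocyte and macrophage markers 4 were above 0, summing to 30.8 to 51.1 FPKM in control and 12.0 to 36.1 FPKM in TNFdARE libraries, with Cd68, Cd14 and Ccr2 listed at 0. Nearly all of that sum was Lyz2, at 30.8 to 50.3 FPKM in control and 11.9 to 35.8 FPKM in TNFdARE libraries. Of 14 B cell markers 6 were above 0, summing to 1.43 to 37.9 FPKM in control and 0.129 to 14.4 FPKM in TNFdARE libraries, with Cd79a, Cd79b and Ms4a1 listed at 0. The 13 T and NK cell markers summed to at most 1.02 FPKM in any library, and 1 of 6 plasmacytoid dendritic cell markers was above 0. The highest monocyte and B cell sums were both in control mouse 3, with Sp140 at 0.888 FPKM. Control mouse 4, with Sp140 at 11.3 FPKM, had a monocyte sum of 47.4 FPKM and a B cell sum of 7.12 FPKM. TNFdARE mouse 1, with Sp140 at 51.6 FPKM, had the lowest monocyte sum (12.0 FPKM), and its B cell sum of 13.7 FPKM was Cd74 alone. The erythroid sum was 6960, 1160, 2980 and 14700 FPKM in TNFdARE mice 1 to 4, against Sp140 at 51.6, 12.8, 8.31 and 8.41 FPKM, and it was 880 FPKM in control mouse 4, the control with Sp140 at 11.3 FPKM. The part of these cells in the member levels was not tested.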

How the data were processed

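Washed platelets of 4 TNFdARE and 4 control mice were extracted with TRIzol and treated with DNase, and libraries were read as dual-pass 150 bp reads on a NovaSeq sequencer. For each gene, the authors deposited 1 value per mouse, taken here as FPKM; the unit was inferred from columns that sum to different totals and from Cufflinks and mm10 in the submitters' processing notes. Versions, annotation, strand and the handling of multi-mapping reads are not given in the sources used here. The number of reads is unknown, and the low values did not reveal the worth of 1 fragment in each library, so no count model was used. Columns were matched to mice by the library names in the labels, and 0 value columns were left unmapped.

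Genes with a mean of at least 1 FPKM over the 8 mice (1534 of 43548) were compared on log2(FPKM + 1) by the moderated linear model of limma 3.58.1 (R 4.3.3), with a trend and Benjamini-Hochberg adjustment, and single members with a two-sided exact permutation test (scipy 1.17.1). The design was unpaired and without covariates. The controls are littermates, but the sources used here do not say which mice shared a litter, so p-values measure the spread between these mice. The members and lists were chosen with earlier results of these data known. Named are the 9 members, interferon list genes with an unadjusted p under 0.05, the 3 most abundant tested genes per list and the 3 genes most like Sp140, which also had the highest mean of the members. Irf7, Herc6, Ly6e, Ifit2, Parp9, the copies of Sp140 and the marker genes were named after their values were seen, and values of some list genes are not reported here. Alternatives were pseudocounts of 0.1 and 5, no filter, a mean of at least 5 FPKM or 4 libraries above 0, quantile and median-of-ratios scaling, rescaling without the most abundant gene, no trend, sample weights, sex as a covariate, a replicate block, and leaving out each mouse. Gene positions and transcripts are from GENCODE M21 (42384 of the table's identifiers matched), the same build as mm10, transcript similarity is from BLAST 2.17.0, and figures were drawn with matplotlib 3.10.9.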

Additional observations from a re-analysis of the deposited data

Results flagged for a closer look

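In 9 of 31 groups of 4 mice examined for the members and the tested interferon genes, 1 mouse lay far from the other 3 on the FPKM scale. The measure is the gap to the nearest mouse as a share of the range of the group, set against Dixon's 95% critical value. Chance would pass it in about 1 of 20 groups of normally distributed values, which these skewed values with many zeros are not. The 9 include both Sp140 groups, picked on these values, and groups where the share is 1 by construction, so the count was not tested against chance. For Sp140, whose values chose it and are given as a description, it was 0.94 in the control group, where control mouse 4 was at 11.3 FPKM and the next at 0.888, and 0.897 in the TNFdARE group, where TNFdARE mouse 1 was at 51.6 and the next at 12.8. On the log2(FPKM + 1) scale these shares were lower, at 0.814 and 0.774, and no outlier test is drawn from the values on which Sp140 was picked. The share was 1 for Sp100 in control mouse 3 (0.364 FPKM), Sp110 in TNFdARE mouse 3 (0.416), Isg15 in control mouse 4 (2.65), and Ly6e, a GPI-anchored protein that restricts coronavirus entry, in control mouse 3 (1.95) and TNFdARE mouse 4 (19.1), where the value is 1 by construction, since the other 3 mice of each group were listed at 0. It was 0.863 for Jak1 in control mouse 2 (36.2 FPKM beside 5.19, and 0.531 on the log2 scale) and 0.994 for Myd88 in TNFdARE mouse 2 (5.77 beside 0.0334, and 0.983 on the log2 scale).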

How the results depend on the processing

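In all 12 other settings and in the 8 fits without 1 mouse, 0 genes passed the adjusted threshold by limma, and the smallest adjusted p was between 0.146 and 0.91. The 69 genes with an unadjusted p under 0.05 became 36 with a mean of at least 5 FPKM (583 genes tested) and 111 with sample weights, and 46 to 76 without 1 mouse. The share that was higher in TNFdARE, 39.1% at first, was 57.6% after quantile normalization and 66.7% with sample weights, and 24.5% without control mouse 1, 28.9% without TNFdARE mouse 2, 55.6% without TNFdARE mouse 1 and 55.3% without TNFdARE mouse 4. Of the interferon genes, 0 had an unadjusted p under 0.05 in the 12 settings, and 1 of 8 tested, Ube2l6, did without TNFdARE mouse 2 (limma adjusted p = 0.72). The Sp140 difference, on which Sp140 was picked, ran from 1.44 to 3.44 in the other settings and from 1.98 to 3.29 without 1 mouse. This range is a description and no test of Sp140. The Isg20 difference kept its direction in all of these fits, from 0.67 to 2.50. Another filter, no trend, sex as a covariate and the replicate block left the Isg20 difference as it was. Those settings cannot change a difference in this balanced design, so they did not test its direction. The pseudocounts, the scalings, the sample weights and the fits without 1 mouse could change it. A pseudocount of 0.1 turned Myd88 to -0.85, Ifit2 to -0.16 and Parp9 to 0.39, a pseudocount of 5 turned Uba7 to 0.020, and sample weights turned Ifit2 to -0.20 and Ly6e to -0.12. Without 1 mouse, the difference ran from -1.49 to 0.21 for Ifitm2, -0.58 to 0.84 for Ifitm3, -0.21 to 0.25 for Myd88, -1.21 to 0.86 for Uba7, -0.54 to 0.30 for Parp9 and -0.40 to 0.73 for Ifit2. The cause was not tested for any of these. No pairing by replicate number was seen, with correlations of same-numbered mice from -0.07 to 0.06. Of the 4 mice, 1 correlated best with its own number. Between libraries of unknown depth, low correlations cannot exclude a shared litter or preparation. The library names share a number, of unstated meaning, between TNFdARE mouse 1 and control mouse 1 (r = 0.06) and between TNFdARE mouse 3 and control mouse 4 (r = 0.04). With the replicate block 64 genes had an unadjusted p under 0.05. The Sp140 difference was 2.56 as before, because each number holds 1 mouse of each genotype and the block cannot change a difference. Unknown depth limits every value near 0.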
